A study of Homo sapiens with 18 samples.

Results

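MDA-MB-231 cells kept in medium with paclitaxel were compared with MDA-MB-231 cells that carried exogenous TRA2A. MDA-MB-231 is a widely used human cell line from a triple-negative tumour, one without estrogen, progesterone or HER2 receptor expression. The cells of the first group, PTX, were maintained in medium with 10 nM paclitaxel, and those of the second group, 231T, had received a vector for TRA2A. All groups were grown in DMEM with fetal bovine serum, and total RNA was taken with Trizol and labelled with biotin. The labels give neither the promoter of the vector nor whether the cells were 1 clone or a pool, and the 231T cells are not described as having been given paclitaxel. The comparison therefore sets 2 different interventions side by side, and control cells (3 arrays) are given as values for orientation. The comparison took the 3 PTX and 3 231T arrays out of 18 records, which hold the same 9 arrays at exon level and at gene level. At exon level, 913055 probe sets measured parts of exons or exon junctions, and 685584 of them were tested, those whose mean over the 9 arrays reached a floor at about the 25th percentile of all values (3.9 on the log2 scale, rounded). Of these, 436344 were exon parts and 249240 were junctions. Whether the 3 arrays of a group come from independent cultures is not stated, and p-values then reflect only how much these arrays scatter, which can be technical.

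TRA2A is a serine/arginine-rich protein that binds purine-rich sequences in exons and helps the spliceosome to include the exon. It works beside its paralog TRA2B and the SRSF proteins, many of which control their own level by including an exon that sends the transcript to decay. Paclitaxel binds the beta-tubulin of microtubules, stabilises them and holds cells in mitosis, and cells kept in it can come to differ from the starting population in tubulins, drug efflux and survival genes.

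Levels are given as centred log2 units, that is, the deposited log2 value minus the median of that array over the tested features. A difference is PTX minus 231T on this scale, and because some deposited values lie above the range of a scanner, differences are not read as folds of RNA. The exon-level medians before centring were 6.08, 6.02 and 6.03 on the PTX arrays and 5.64, 5.61 and 5.59 on the 231T arrays. Of 2995 features that occur in both tables, all 2995 had the same deposited value (within 0.001) at exon and at gene level on each 231T array, against 6 to 64 on the PTX arrays, where the exon-level value was shifted by 0.37 for features between 6 and 8 and by -0.12 for features above 16. The exon-level 231T columns were thus not on the same scale as the PTX columns. For the 1452 tested exon parts and junctions in both tables, the exon-level difference minus the gene-level difference had a median of -0.18, an SD of 0.34 and 1st and 99th percentiles of -0.95 and 0.75, and 0 of them moved by 2 or more. Exon-level differences of 2 or more are therefore given most weight below, and genes are described from the gene-level table, a second summary of the same arrays. At gene level, Pearson's r between arrays, taken across clusters that are no independent replicates, was 0.977 to 0.986 within PTX, 0.985 to 0.990 within 231T and 0.928 to 0.968 between them. The mean r with the 3 231T arrays was 0.967 for PTX replicate 1 and lower for replicates 2 and 3, at 0.934 and 0.943. Of 10 genes that mark MDA-MB-231 cells, 9 had a mean deposited value above 6 (S100A4 was at 4.04). Of 9 luminal genes KRT8, KRT18 and KRT19 did, while ESR1 and PGR lay below the filter, and 0 of 5 fibroblast and 0 of 3 blood cell genes exceeded 6. The summed deposited values of the 5 fibroblast genes were 18.9 to 19.7 on the PTX arrays and 19.1 to 19.3 on the 231T arrays. For the 9 luminal genes the sums were 59.3 to 61.1 in PTX and 57.0 to 57.7 in 231T, and their part in the results was not tested. These genes did not move together. KRT8 (1.14) and KRT19 (0.94) were higher in PTX, and FOXA1 was lower (-0.65, limma adjusted p = 0.0123). KRT18, GATA3, EPCAM and CDH1 did not pass the test described below. Of the MDA-MB-231 genes LOX (-2.33, limma adjusted p = 0.00265) and CD44 (-0.83) were lower. S100A4 was higher (0.64, limma adjusted p = 0.002), and the others did not pass.

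PTX and 231T differed at many probe sets. At exon level 157910 of 685584 probe sets (23%) passed the test, a Benjamini-Hochberg adjusted p below 0.05 in limma over all tested probe sets, with 66738 higher (9.73%) and 91172 lower (13.3%) in PTX. The 3 PTX and 3 231T arrays did not overlap for 39.5% of all tested probe sets. A difference of at least 2 was called for 51791, 19574 higher and 32217 lower. The direction depended on the scaling: 42.3% of the called probe sets were higher in PTX after centring, 73.6% in the values as deposited, 48.9% after quantile normalization and 46.8% after the control and PTX arrays were mapped to the scale of the gene-level table. For differences of at least 2 these shares were 37.8%, 66.4%, 47.8% and 42.9%. Without PTX replicate 3 the count of called probe sets was 102588. Among exon parts 37361 were higher (8.56%) and 59488 lower (13.6%), and among junctions 29377 were higher (11.8%) and 31684 lower (12.7%). The share called rose with the level, from 7.39% in the dimmest of 10 equal bins of probe sets to 45.0% in the brightest, where 27.8% were lower and 17.2% higher. The scale difference between PTX and 231T columns also varied with level, so the direction within a bin is not read as a result. Its part in these shares was not tested.

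**Figure D1:**
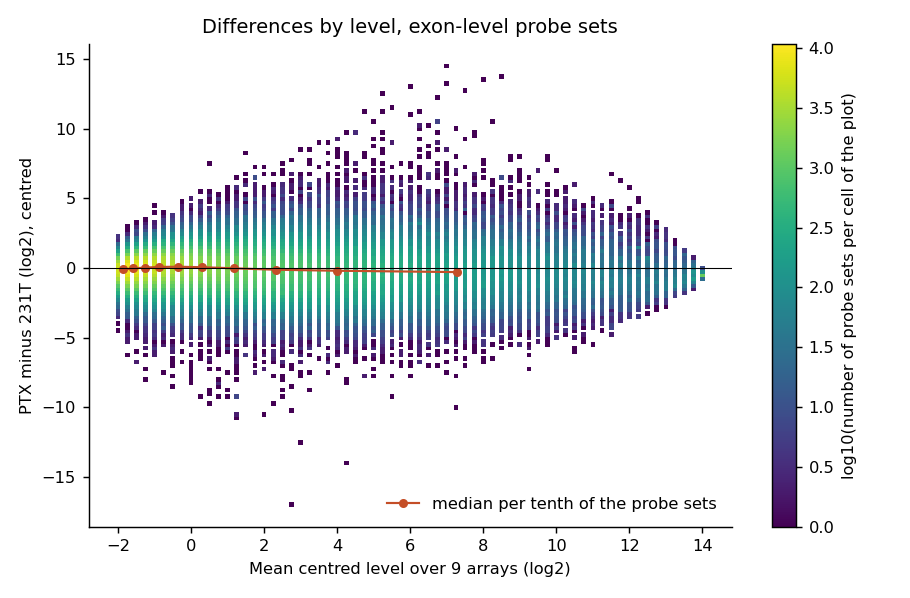
PTX minus 231T difference (log2, vertical axis) against the mean centred level over 9 arrays (log2, horizontal axis) of the tested exon-level probe sets, with colour for the number of probe sets and the line for the median difference in each of 10 bins. The median moved from -0.11 in the dimmest bin through 0.088 in the fifth to -0.30 in the brightest. The scale of the PTX columns also departed from that of the 231T columns by level, with a shift of 0.37 for features between 6 and 8 and -0.12 above 16. The part of that shift in the curve was not tested.

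At gene level 10533 of 50646 transcript clusters (20.8%) passed the same test, 4130 higher (8.15%) and 6403 lower (12.6%) in PTX, and for 37.6% of all clusters the 6 arrays fell into 2 groups without overlap. The median difference of all clusters was -0.028 after centring, and 39.2% of the called clusters were higher, against 53.2% in the values as deposited (median difference 0.076) and 44.6% after quantile normalization. Without 231T replicate 2 the count was 6413, without 231T replicate 1 it was 6747, and without PTX replicate 3 it was 6579. Direction differed by the kind of gene. Of 16020 protein-coding genes 934 were higher (5.83%) and 3393 lower (21.2%), whereas of 212 small nucleolar RNA genes 69 were higher and 5 lower, and of 830 pseudogenes 231 were higher and 31 lower. These pseudogenes include copies of U5 RNA that are counted again below. Copies of U6 and 5S RNA are counted below too, and how many of the pseudogenes they make up was not counted. The pseudogene counts are therefore not read as separate from those families. The 677 transcribed pseudogenes had no such lean, with 57 higher and 64 lower. Of the 915 clusters called with a difference of at least 2, 543 were higher and 372 lower. Of the protein-coding genes among them 19 were higher and 147 lower. In these bulk samples fewer cells that express a gene and less of its RNA per cell cannot be told apart.

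TRA2A itself was lower in PTX than in 231T. Its gene-level values were 3.85, 3.21 and 3.08 on the PTX arrays and 4.97, 5.01 and 4.72 on the 231T arrays, with 1.98, 2.66 and 2.43 on the control arrays. The groups did not overlap, as for 37.6% of all clusters, and each PTX array lay above each control array and below each 231T array. The difference was -1.52 (SE 0.23, limma adjusted p = 0.00381). At exon level, 13 of 26 tested TRA2A exon parts were lower in PTX (background 13.6%), 2 were higher and 11 did not pass the test, and 8 of 13 junctions were lower (background 12.7%) and 0 higher. The exon part with the greatest difference, PSR07018755, read 5.19, 3.82 and 4.15 on the PTX arrays and 8.53, 9.04 and 8.93 on the 231T arrays, and it differed by -4.44 (SE 0.38, limma adjusted p = 0.000253). The PTX arrays lay between the control and the 231T arrays without overlap for 14 exon parts and 7 junctions. The 2 exon parts that were higher in PTX stood out from the rest. PSR07018748, the brightest exon part of the gene, read 11.72, 12.03 and 12.04 on the PTX arrays and 10.94, 11.06 and 11.05 on the 231T arrays, with 11.97, 11.68 and 11.96 in control, a difference of 0.91 (SE 0.23, limma adjusted p = 0.02). PSR07018761 read 5.26, 6.22 and 6.43 on the PTX arrays and 5.21, 4.22 and 3.53 on the 231T arrays, a difference of 1.65 (SE 0.45, limma adjusted p = 0.0284). The first call was lost without PTX replicate 2, PTX replicate 3, 231T replicate 1 or 231T replicate 2 (limma adjusted p then 0.0511 to 0.0656), and the second without PTX replicate 2, PTX replicate 3, 231T replicate 2 or 231T replicate 3 (limma adjusted p then 0.0783 to 0.097). Of the 15 exon parts called, 8 kept their call without each array in turn, as did 8 of 8 junctions.

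**Figure D2:**
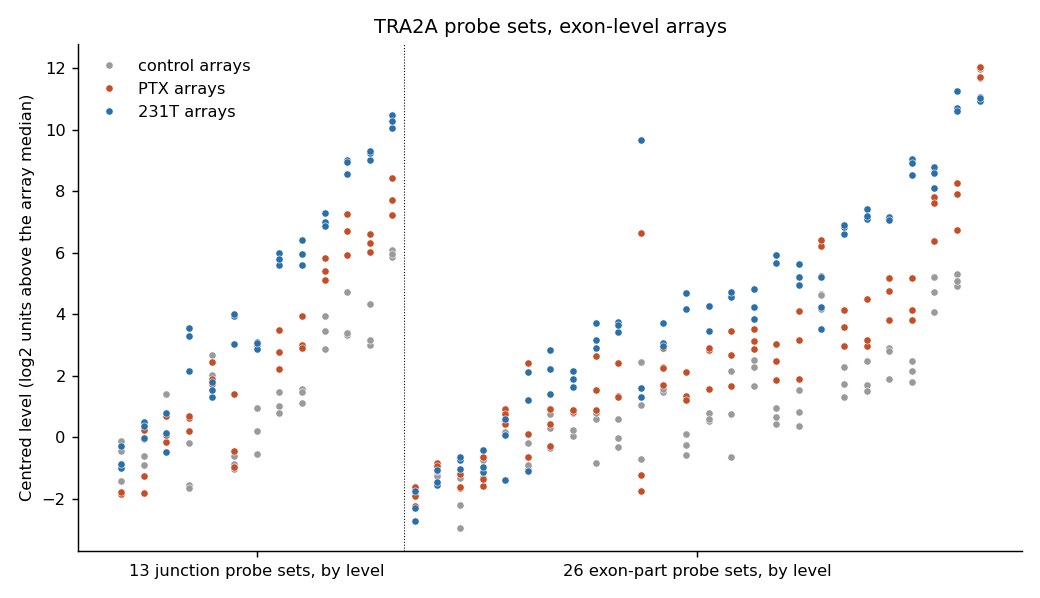
Centred level (log2 units above the array median, vertical axis) of the 13 junction and 26 exon-part probe sets of TRA2A, ordered by level along the horizontal axis, with a point for each of 3 control, 3 PTX and 3 231T arrays. The PTX points lie between the control and the 231T points for most bright probe sets, and the brightest exon part, at 10.94 to 11.06 in 231T, is higher in PTX.

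Other splicing factors were lower in PTX together with TRA2A. The list used here held TRA2, SR and hnRNP proteins, their kinases and other genes such as PNN, RSRC2 and CALU. Of its 24 tested members 15 were lower, 0 were higher and 9 did not pass the test. Their median difference was -0.73 against -0.028 over all clusters, of which 12.6% were lower. Of protein-coding genes 21.2% were lower. TRA2B, the paralog of TRA2A, read 2.87, 2.14 and 1.75 on the PTX arrays and 3.98, 3.99 and 3.47 on the 231T arrays, and differed by -1.56 (SE 0.27, limma adjusted p = 0.00645). SRSF1, the founding SR protein, read 6.22, 4.77 and 4.50 on the PTX arrays and 7.27, 7.15 and 6.90 on the 231T arrays, and differed by -1.94 (SE 0.41, limma adjusted p = 0.0127). In both genes the groups did not overlap, and PTX replicate 1 was the PTX array nearest to 231T. The SR proteins SRSF7 (-1.72), SRSF11 (-1.65) and SRSF10 (-1.41) were also lower, as were SRPK1 (-1.45) and CLK1 (-0.69), kinases that phosphorylate SR proteins, and PNN (-1.15), a partner of the exon junction complex. The limma adjusted p of these 6 genes was 0.00186 to 0.00962. SRSF3, SRSF5, SRSF6, HNRNPH1, HNRNPA2B1 and CLK4, with differences of -1.53 to -0.44, each lost their call without 1 or more of control replicate 1, control replicate 2, control replicate 3, PTX replicate 2, PTX replicate 3, 231T replicate 1, 231T replicate 2 and 231T replicate 3 (limma adjusted p then 0.0503 to 0.149). The list had 9 called members without PTX replicate 2, PTX replicate 3, 231T replicate 1 or 231T replicate 2. The control arrays read 3.60, 4.29 and 4.07 for SRSF1, below every PTX array, and 1.40, 1.37 and 1.36 for CLK1, above every PTX array.

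The protein-coding gene with the greatest positive difference was CST4, a salivary cystatin that inhibits cysteine proteases. It read 5.03, 5.25 and 7.62 on the PTX arrays and -0.16, -0.14 and 0.15 on the 231T arrays. No PTX array came near a 231T array, PTX replicate 3 was the highest, and the difference was 6.02 (SE 0.64, limma adjusted p = 0.00109). Its neighbour CST1 was higher by 4.63 (SE 0.56, limma adjusted p = 0.00169), and CST2 by 2.21 (SE 0.35, limma adjusted p = 0.00442). Of 9 tested cystatins CST1 to CST9, a family picked after its values were seen, 5 were higher and 0 lower, where 8.15% of all clusters were higher. The call of CST7 (0.71, limma adjusted p = 0.0213) was lost without PTX replicate 2, PTX replicate 3, 231T replicate 1 or 231T replicate 2 (limma adjusted p then 0.0578 to 0.0735). CST1, CST2 and CST4 are near-identical copies, so the signal of one may hold that of another. TNS4, a focal adhesion protein, read 4.71, 3.78 and 5.84 on the PTX arrays and 0.48, 0.57 and 0.62 on the 231T arrays. The groups were apart, the control arrays at 6.36, 6.42 and 6.81 were above both, and the difference was 4.22 (SE 0.43, limma adjusted p = 0.000987). ITGB4, the integrin of hemidesmosomes, read 4.07, 3.72 and 4.26 on the PTX arrays and 1.09, 1.17 and 0.99 on the 231T arrays, with 5.51, 5.24 and 5.61 in control. It differed by 2.93 (SE 0.15, limma adjusted p = 0.000183), and again both groups lay below control. MUC5B, a gel-forming mucin, differed by 3.91 (SE 0.35, limma adjusted p = 0.000713), IGFBP4, which binds insulin-like growth factors, by 3.80 (SE 0.36, limma adjusted p = 0.000805), and CREB3L1, a membrane-bound transcription factor of the secretory pathway, by 3.57 (SE 0.35, limma adjusted p = 0.000895). The lysosomal protease CTSD (2.76, limma adjusted p = 0.000479), the integrin ITGA3 (1.98, limma adjusted p = 0.00109) and the latent TGF-beta binding protein LTBP1 (1.998, limma adjusted p = 0.00155) were higher as well. None of the other genes named in these sentences from CST4 to LTBP1 lost its call in the 9 fits without 1 array.

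**Figure D3:**
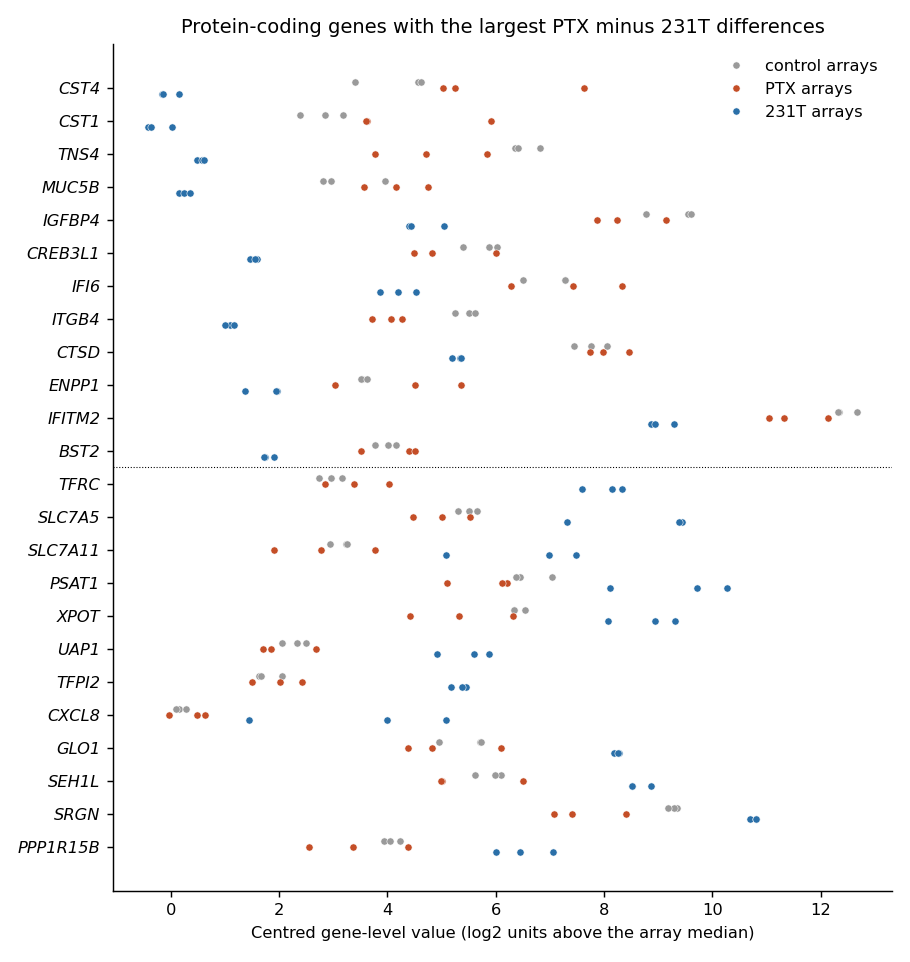
Centred gene-level value (log2 units above the array median, horizontal axis) on each of 3 control, 3 PTX and 3 231T arrays for the 12 protein-coding genes highest in PTX (above the dotted line) and the 12 lowest. Genes were taken only if called and without overlap between the PTX and 231T arrays, so the gap in all 24 follows from the choice. CXCL8 comes closest to overlap, with 0.63 on PTX replicate 3 and 1.44 on 231T replicate 3.

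Interferon-stimulated genes were higher in PTX or did not pass the test. Of 18 tested members of the list, 9 were higher, 0 lower and 9 not called, with a median difference of 0.55, where 8.15% of all clusters were higher and their median was -0.028. IFI6, a mitochondrial protein that protects cells from apoptosis, read 7.42, 6.28 and 8.33 on the PTX arrays and 4.20, 3.86 and 4.53 on the 231T arrays. The lowest PTX array was above the highest 231T array, and the difference was 3.15 (SE 0.47, limma adjusted p = 0.0034). IFI27, another small mitochondrial protein induced by interferon, read 1.96, 1.51 and 2.44 on the PTX arrays and -0.46, -0.033 and -0.17 on the 231T arrays, against 0.022, 0.32 and 0.20 in control. It was thus high on the PTX arrays alone, and differed by 2.19 (SE 0.22, limma adjusted p = 0.001). The oligoadenylate synthetases, which sense double-stranded RNA, were higher for OASL (1.71, limma adjusted p = 0.000689), OAS2 (1.53, limma adjusted p = 0.00436) and OAS1 (1.19, limma adjusted p = 0.00165). OASL and OAS1 were near their control levels in PTX (control arrays 3.16 to 3.73 and 1.35 to 1.55), while OAS2 was above them. OAS3, ISG15, IFI44L and MX2, with differences of 0.32 to 1.004, were called but each lost the call without 1 or more of control replicate 1, control replicate 2, control replicate 3, PTX replicate 1, PTX replicate 3, 231T replicate 1, 231T replicate 2 and 231T replicate 3 (limma adjusted p then 0.0518 to 0.101). Without PTX replicate 3 the list had 5 called members. IFIT3 (-0.0012, limma adjusted p = 0.997) and MX1 (-0.039, limma adjusted p = 0.777), both classical interferon targets, did not pass the test. Outside the list, and taken after values were seen, the interferon-induced membrane proteins IFITM1 (1.74, limma adjusted p = 0.000251) and IFITM2 (2.47, limma adjusted p = 0.00109) and the tetherin gene BST2 (2.36, limma adjusted p = 0.001) were higher. IFITM3 (1.13, limma adjusted p = 0.00103) was higher too, but not after quantile normalization.

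The promoters of the interferon genes are shown because their shared element is known to bind the interferon-activated factor ISGF3. The element, searched as GAAA, any 2 bases and GAAA again on both strands, occurred in 996 of 27305 RefSeq promoters (3.65%) of 250 bases before to 50 bases after the start. It occurred in 10 of the 13 tested list members with a promoter in the table (76.9%), namely in 5 of 6 that were called and 5 of 7 that were not. Below are the promoters of 2 genes that were called and of IFIT3, which was not, on build GRCh38.p14, written 5′ to 3′ on the strand of the gene with matches of either strand in capitals. IFI6 (chr1:27672143-27672442, minus strand) has 3 matches, at -156, -115 and -93 from the start, IFI27 (chr14:94110486-94110785, plus strand) has 2, at -108 and -95, and IFIT3 (chr10:89327747-89328046, plus strand) has 2, at -156 and -122, counted to the first base of each. A match is a description of letters, and members that were not called held it too.
IFI6: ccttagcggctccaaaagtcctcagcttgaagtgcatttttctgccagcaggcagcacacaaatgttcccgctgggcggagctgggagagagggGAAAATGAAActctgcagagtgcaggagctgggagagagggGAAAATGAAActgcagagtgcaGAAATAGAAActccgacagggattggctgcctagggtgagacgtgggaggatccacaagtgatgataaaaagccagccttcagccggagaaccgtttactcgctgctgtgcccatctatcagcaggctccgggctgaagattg
IFI27: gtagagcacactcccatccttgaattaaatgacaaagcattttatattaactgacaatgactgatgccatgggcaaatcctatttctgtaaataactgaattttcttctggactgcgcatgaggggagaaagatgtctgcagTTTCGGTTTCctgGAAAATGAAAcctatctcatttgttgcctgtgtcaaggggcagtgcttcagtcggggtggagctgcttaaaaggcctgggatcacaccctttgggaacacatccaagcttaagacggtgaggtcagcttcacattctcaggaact
IFIT3: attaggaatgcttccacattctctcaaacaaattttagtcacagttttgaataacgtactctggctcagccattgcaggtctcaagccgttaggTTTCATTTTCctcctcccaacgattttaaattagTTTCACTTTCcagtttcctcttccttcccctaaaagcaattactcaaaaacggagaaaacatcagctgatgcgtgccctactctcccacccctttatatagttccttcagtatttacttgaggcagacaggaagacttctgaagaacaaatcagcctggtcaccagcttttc

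Among the genes with the greatest negative differences were carriers of amino acids, the receptor for iron and the exporter of tRNA. TFRC, the receptor for iron-loaded transferrin, read 4.02, 2.86 and 3.39 on the PTX arrays and 8.15, 8.33 and 7.60 on the 231T arrays, and control read 2.75, 3.17 and 2.96. The PTX arrays were near control and far below all 231T arrays, and the difference was -4.60 (SE 0.30, limma adjusted p = 0.000411). SLC7A5, the carrier of large neutral amino acids, read 4.46, 5.01 and 5.53 on the PTX arrays and 9.44, 9.38 and 7.31 on the 231T arrays. 231T replicate 3 was the 231T array nearest to PTX, without overlap, and the difference was -3.71 (SE 0.54, limma adjusted p = 0.00299). SLC7A11, the cystine carrier that supplies glutathione synthesis, read 3.78, 1.90 and 2.77 on the PTX arrays and 6.99, 7.48 and 5.07 on the 231T arrays. 231T replicate 3 again lay lowest of its group, and the difference was -3.70 (SE 0.64, limma adjusted p = 0.00597). PSAT1, an enzyme of serine synthesis, read 6.20, 5.09 and 6.12 on the PTX arrays and 9.72, 10.26 and 8.10 on the 231T arrays, with 7.05, 6.45 and 6.38 in control. It differed by -3.55 (SE 0.54, limma adjusted p = 0.00351), and 231T replicate 3 was once more the array nearest to PTX. XPOT, the exporter of tRNA from the nucleus, differed by -3.42 (SE 0.46, limma adjusted p = 0.00245), and ASNS, asparagine synthetase, by -2.23 (SE 0.40, limma adjusted p = 0.00677). ATF4, the transcription factor that induces many of these genes when amino acids are short, read 5.70, 5.13 and 5.75 on the PTX arrays and 7.23, 7.12 and 6.78 on the 231T arrays, and 6.93, 6.42 and 6.42 in control. PTX lay below control and 231T did not lie below it, and the difference was -1.52 (SE 0.21, limma adjusted p = 0.00272).

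Of 19 cytosolic aminoacyl-tRNA synthetases, a family picked after values were seen, 14 were lower in PTX, VARS1 was higher and 4 were not called, with a median of -1.22, where 12.6% of all clusters and 21.2% of protein-coding genes were lower. The greatest differences were those of NARS1 (-2.81, limma adjusted p = 0.00752) and TARS1 (-2.39, limma adjusted p = 0.00364). Calls of EPRS1, IARS1, KARS1, LARS1, SARS1, VARS1 and WARS1 were each lost without 1 or more of control replicate 1, control replicate 2, control replicate 3, PTX replicate 2, PTX replicate 3, 231T replicate 1, 231T replicate 2 and 231T replicate 3 (limma adjusted p then 0.0504 to 0.0958). Of 12 tested SLC7A carriers 5 were lower (SLC7A5, SLC7A11, SLC7A1, SLC7A6 and SLC7A2) and 0 higher, and their median was -0.066 after centring and 0.038 as deposited. SLC7A6 lost its call without PTX replicate 2 (limma adjusted p then 0.0511). The synthetases, these 5 carriers and PSAT1, ASNS, ATF4 and XPOT made a set of 28 genes of amino acid supply. The carriers were taken for being lower and the other 4 genes after their values were seen, so the calls of the set are not counted. The promoters of the set were searched for the core of the amino acid response element to which ATF4 binds, TGATGNAA on both strands, which occurred in 1003 of 27305 promoters (3.67%). It was found in 8 of the 23 members with a promoter in the table (34.8%). Because the set was made with its values known, matches are not set against calls, and a match is a description of letters. The promoters of ASNS (chr7:97872359-97872658, minus strand, match from -68 to -61) and NARS1 (chr18:57621787-57622086, minus strand, match from 15 to 22 after the start) are shown on GRCh38.p14 with the match in capitals, since both genes were lower and the element of ASNS is a known nutrient-sensing site.
ASNS: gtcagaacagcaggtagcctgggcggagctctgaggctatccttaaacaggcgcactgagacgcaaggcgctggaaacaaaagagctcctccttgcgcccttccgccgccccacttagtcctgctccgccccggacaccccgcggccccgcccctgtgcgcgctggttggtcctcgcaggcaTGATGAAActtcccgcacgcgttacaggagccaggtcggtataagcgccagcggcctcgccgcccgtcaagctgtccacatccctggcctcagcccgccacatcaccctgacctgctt
NARS1: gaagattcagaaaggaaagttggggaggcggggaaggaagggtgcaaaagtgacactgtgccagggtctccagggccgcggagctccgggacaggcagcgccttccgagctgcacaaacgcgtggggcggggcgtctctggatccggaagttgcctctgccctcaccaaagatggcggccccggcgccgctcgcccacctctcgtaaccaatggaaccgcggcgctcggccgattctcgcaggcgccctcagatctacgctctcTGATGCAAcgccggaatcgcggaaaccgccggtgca

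Further genes that were lower in PTX have other roles. CXCL8, a chemokine that attracts neutrophils, read 0.48, -0.030 and 0.63 on the PTX arrays and 3.999, 5.08 and 1.44 on the 231T arrays. The 231T arrays spread widely, with replicate 3 nearest to PTX, and the difference was -3.15 (SE 0.76, limma adjusted p = 0.0217). It lost its call without PTX replicate 2, PTX replicate 3, 231T replicate 1 or 231T replicate 2 (limma adjusted p then 0.0526 to 0.0735). TFPI2, an inhibitor of serine proteases, read 2.42, 1.5003 and 2.02 on the PTX arrays and 5.44, 5.38 and 5.18 on the 231T arrays, a difference of -3.35 (SE 0.22, limma adjusted p = 0.000411), and the 3 231T arrays lay close together. GLO1, which detoxifies methylglyoxal, differed by -3.14 (SE 0.40, limma adjusted p = 0.00202), and SRGN, the proteoglycan serglycin, by -3.14 (SE 0.29, limma adjusted p = 0.000758). UAP1 makes UDP-N-acetylglucosamine and differed by -3.39 (SE 0.31, limma adjusted p = 0.000755), and ATP13A3 is a transport ATPase and differed by -3.07 (SE 0.36, limma adjusted p = 0.00147). The nucleolar helicase DDX21 (-3.07, limma adjusted p = 0.00135), the mitochondrial DNA-binding protein TFAM (-2.83, limma adjusted p = 0.000637) and the YAP target ANKRD1 (-2.93, limma adjusted p = 0.0037) were lower too. SRGN and ANKRD1 lay below control in PTX, with control at 9.34, 9.30 and 9.17 for SRGN, while TFPI2, UAP1, TFRC and TFAM lay near control in PTX and above it in 231T. Whether the drug, the vector or the culture history carries a difference cannot be told apart in a comparison of PTX with 231T.

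Genes of stress and redox defence were lower or not called: of 18 tested members 0 were higher, 6 lower and 12 not called, with a median of -0.32, where 12.6% of all clusters and 21.2% of protein-coding genes were lower. TXNRD1, thioredoxin reductase, read 3.40, 2.46 and 2.58 on the PTX arrays and 5.99, 6.05 and 5.10 on the 231T arrays, and 3.92, 4.04 and 3.98 in control. PTX lay below control and 231T above it, and the difference was -2.90 (SE 0.30, limma adjusted p = 0.00103). GCLM, a subunit of the first enzyme of glutathione synthesis, differed by -2.12 (SE 0.29, limma adjusted p = 0.00256). The calls of NQO1 (-0.37) and DDIT3 (-0.35) were each lost without 1 or more of control replicate 2, control replicate 3, PTX replicate 1, PTX replicate 2, PTX replicate 3, 231T replicate 1, 231T replicate 2 and 231T replicate 3 (limma adjusted p then 0.0575 to 0.139), and HSPA5 and XBP1 of the unfolded protein response had differences of 0.37 and -0.74, which did not pass the test.

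Among genes of apoptosis and survival 1 of 16 was higher, 7 were lower and 8 not called, with a median of -0.53. Of all clusters 8.15% were higher and 12.6% lower, and of protein-coding genes 5.83% and 21.2%. MCL1, an anti-apoptotic protein of the BCL2 family, read 5.64, 4.57 and 4.54 on the PTX arrays and 7.02, 7.22 and 6.61 on the 231T arrays, a difference of -2.03 (SE 0.30, limma adjusted p = 0.00316). BIRC2, an inhibitor of apoptosis, differed by -2.09 (SE 0.22, limma adjusted p = 0.00103), and BCL2 by -0.95 (SE 0.17, limma adjusted p = 0.00669). Genes that promote death were lower as well, namely the death receptor TNFRSF10A (-1.42, limma adjusted p = 0.00226), PMAIP1 (-1.41, limma adjusted p = 0.0072), which codes for NOXA, and BID (-0.90, limma adjusted p = 0.00654). The groups of all 6 genes were apart, and control lay near PTX for MCL1 (4.83, 5.07 and 5.23) and BIRC2 (1.43, 1.92 and 1.95). BCL2L1, which codes for BCL-XL, was higher by 0.46 (SE 0.13, limma adjusted p = 0.0364), and CASP8 was lower (-0.77). Both calls were lost without 1 or more of the 9 arrays (limma adjusted p then 0.0516 to 0.108).

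The list of tubulins and microtubule-binding proteins, which include the target of the drug, had 5 of 26 members higher, 4 lower and 17 not called, with a median of -0.036. Beside these counts stand 8.15% higher and 12.6% lower over all clusters, and 5.83% and 21.2% over protein-coding genes, and the count of lower members is not read as a result about the list. MAP4, which stabilises microtubules outside neurons, read 4.37, 3.76 and 4.41 on the PTX arrays and 3.26, 3.31 and 2.82 on the 231T arrays, a difference of 1.05 (SE 0.20, limma adjusted p = 0.0083). TBCD, a chaperone in the folding of tubulin dimers, read 3.47, 3.66 and 3.61 on the PTX arrays and 2.77, 2.72 and 2.74 on the 231T arrays, a difference of 0.84 (SE 0.089, limma adjusted p = 0.00106). Arrays of each group lay close together for TBCD, and control at 3.26, 3.46 and 3.42 was nearer to PTX. TBCA, another tubulin chaperone, was lower, with a difference of -0.48 (SE 0.11, limma adjusted p = 0.0148). MAPRE1 (EB1, at growing microtubule ends, -1.47), FIGN (-0.57), TUBB6 (-0.45), TUBB4A (0.84), MAPT (0.72) and STMN3 (0.31) were called but each lost the call without 1 or more of control replicate 2, control replicate 3, PTX replicate 1, PTX replicate 2, PTX replicate 3, 231T replicate 1, 231T replicate 2 and 231T replicate 3 (limma adjusted p then 0.053 to 0.14). The count was 5 without PTX replicate 2, 4 without 231T replicate 1 and 3 without PTX replicate 3 or 231T replicate 2. TUBB (-0.098, limma adjusted p = 0.421), TUBA1B (-0.098, limma adjusted p = 0.436) and TUBB2A (0.26, limma adjusted p = 0.394) did not pass the test, and TUBB3 was not tested here.

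Of 15 genes of drug transport and metabolism 1 was higher, 3 were lower and 11 not called, with a median of -0.070. Both counts were near the shares over protein-coding genes, of which 5.83% were higher and 21.2% lower (8.15% and 12.6% of all clusters). CYP1B1, an oxidase of xenobiotics, read 2.41, 2.09 and 1.73 on the PTX arrays and 4.40, 4.55 and 3.30 on the 231T arrays, a difference of -2.01 (SE 0.37, limma adjusted p = 0.00748). The efflux pump ABCC3 read 2.17, 2.21 and 2.22 on the PTX arrays and 1.25, 1.21 and 1.23 on the 231T arrays, and was higher by 0.97 (SE 0.070, limma adjusted p = 0.000479). ABCC3 was near control (2.29, 2.35 and 2.33) in PTX, with little spread within any group. The pumps ABCC5 (-0.38, limma adjusted p = 0.0136) and ABCC4 (-0.60, limma adjusted p = 0.0154) were lower, and the call of ABCC4 was lost without PTX replicate 2, PTX replicate 3 or 231T replicate 2 (limma adjusted p then 0.0514 to 0.0541). With the filter at the 75th percentile the difference of ABCC5 was -0.21 and its call was lost (limma adjusted p = 0.118). ABCG2 (-0.19, limma adjusted p = 0.286) and CYP3A4 (-0.011, limma adjusted p = 0.94), which oxidises paclitaxel in liver, did not pass the test, and ABCB1 was not tested here.

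Of 27 mitotic genes 4 were higher, 5 lower and 18 not called, with a median of 0.090. Over all clusters 8.15% were higher and 12.6% lower, and over protein-coding genes 5.83% and 21.2%, so neither count is read as a result about the list. PLK1, a kinase of mitotic entry and exit, read 8.88, 9.10 and 9.11 on the PTX arrays and 7.17, 7.10 and 7.50 on the 231T arrays, a difference of 1.77 (SE 0.18, limma adjusted p = 0.000987). All 3 PTX arrays were above all control arrays (8.05, 8.72 and 8.47) and all 231T arrays below them. KIF20A, a kinesin of the central spindle, was higher by 1.58 (SE 0.30, limma adjusted p = 0.00827). CDK1, the kinase that drives mitosis, was lower, with a difference of -1.73 (SE 0.28, limma adjusted p = 0.00458), and so were BUB3 and MAD2L1 of the spindle checkpoint, with -1.78 (SE 0.31, limma adjusted p = 0.00618) and -1.47 (SE 0.23, limma adjusted p = 0.00387). KIF11, the motor that separates spindle poles, was lower, with a difference of -1.65 (SE 0.34, limma adjusted p = 0.0119). MKI67 (1.21), CDC20 (0.69) and AURKB (-0.70) each lost their calls without 1 or more of control replicate 2, control replicate 3, PTX replicate 1, PTX replicate 2, PTX replicate 3, 231T replicate 1, 231T replicate 2 and 231T replicate 3 (limma adjusted p then 0.0533 to 0.121).

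Among 24 epithelial and mesenchymal genes 5 were higher, 3 lower and 16 not called, with a median of 0.080. The shares over all clusters were 8.15% higher and 12.6% lower, and over protein-coding genes 5.83% and 21.2%, and the count of lower members is not read as a result about the list. The keratins KRT8 and KRT19 of simple epithelia were higher by 1.14 (SE 0.16, limma adjusted p = 0.00278) and 0.94 (SE 0.16, limma adjusted p = 0.00626), and the tight junction protein CLDN7 by 0.66 (SE 0.14, limma adjusted p = 0.0118). These 3 calls held without each array in turn. KRT8 read 8.40, 8.69 and 8.96 on the PTX arrays and 7.54, 7.47 and 7.62 on the 231T arrays, with the PTX arrays above control (7.86, 8.31 and 8.14) and the 231T arrays below it. FN1 (1.23), KRT5 (0.29), CD44 (-0.83), CLDN1 (-1.15) and OCLN (-0.55) each lost their calls without 1 or more of the 9 arrays (limma adjusted p then 0.0511 to 0.143). In all, 4 members were called without PTX replicate 2, PTX replicate 3, 231T replicate 1 or 231T replicate 2. VIM, the filament protein of mesenchymal cells, did not pass the test (-0.097, limma adjusted p = 0.432).

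**Figure D4:**
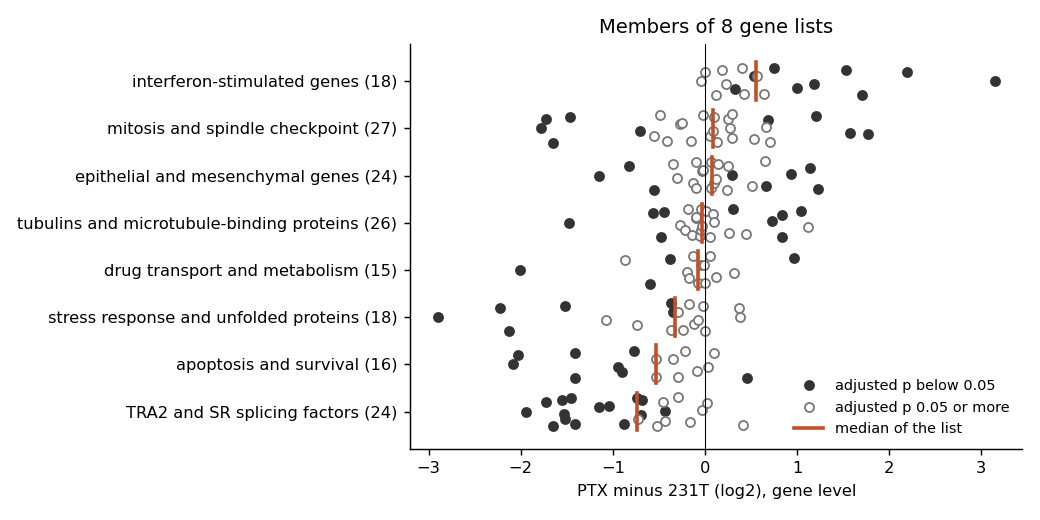
PTX minus 231T difference (log2, gene level, horizontal axis) of each tested member of 8 gene lists, with filled points for members past the test, open points for the others, a bar for the median and the number tested in brackets. Medians run from -0.73 for the splicing list to 0.55 for the interferon-stimulated genes. Called members lie on both sides of 0 for tubulins, mitosis, drug transport, apoptosis and epithelial genes.

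Many small structural RNA genes were higher in PTX, where 8.15% of all clusters were. They were taken as whole families by symbol after values were seen. Of 65 copies of the U6 spliceosomal RNA 45 were higher and 0 lower, with a median difference of 2.07. The median over copies was 4.13, 5.26 and 5.78 on the PTX arrays and 3.47, 2.69 and 2.21 on the 231T arrays, against 3.80, 4.67 and 3.79 in control. Thus 231T arrays lay lowest and PTX replicates 2 and 3 highest. Of 28 copies of U5, 11 were higher and 0 lower. The U5 pseudogene RNU5D-2P read 12.34, 13.69 and 13.50 on the PTX arrays and 7.53, 5.98 and 5.29 on the 231T arrays, a difference of 6.92 (SE 0.56, limma adjusted p = 0.000637), the greatest among clusters with 1 symbol, and the U5 gene RNU5A-1 differed by 3.53 (SE 0.39, limma adjusted p = 0.00121). Copies of U5 or U6 are near-identical, so probes cannot assign the signal to 1 copy. Small nucleolar RNAs guide the modification of ribosomal and spliceosomal RNA. Of 62 tested H/ACA box genes (SNORA) 25 were higher and 1 lower, and of 127 C/D box genes (SNORD) 31 were higher and 4 lower. SNORD99 read 11.42, 12.24 and 13.22 on the PTX arrays and 7.45, 6.30 and 6.49 on the 231T arrays, a difference of 5.54 (SE 0.44, limma adjusted p = 0.000604), and SNORD82 differed by 4.88 (SE 0.26, limma adjusted p = 0.000183). Every PTX and control array lay above every 231T array for SNORD82 and SNORD99. SNORD58C, SNORA20, SNORD63 and SNORA68 were among the 12 greatest positive differences too, at 4.39 to 5.81. Of 383 copies of 5S ribosomal RNA 116 were higher and 5 lower. In each of these 5 families more copies were higher than lower also as deposited and after quantile normalization. Whether the amount of short RNA recovered differed between the groups was not tested.

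MIR4521 read 7.85, 9.38 and 10.17 on the PTX arrays and 4.08, 5.26 and 4.86 on the 231T arrays, and 4.21, 8.23 and 6.77 in control. Its PTX arrays did not overlap the 231T arrays, 1 control array lay with 231T and 1 with PTX, and the difference was 4.40 (SE 0.97, limma adjusted p = 0.0152), a call lost without PTX replicate 3 or 231T replicate 1 (limma adjusted p then 0.0551 to 0.0559). The array measures RNA from the locus and not the mature miRNA. The mature sequence in RefSeq (chr17:8186948-8186969, plus strand, GRCh38.p14), shown to identify the locus with its seed (bases 2 to 8) in capitals, is as follows.
hsa-miR-4521: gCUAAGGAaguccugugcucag

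Members of several families of proteins that every cell uses were lower in PTX, where 12.6% of all clusters were. The families were again taken whole after values were seen. Of 44 proteasome subunits (PSM) 26 were lower and 3 higher, with a median of -0.92. The median over subunits was 4.89, 4.01 and 3.91 on the PTX arrays and 5.65, 5.69 and 5.70 on the 231T arrays, with 3.95, 4.42 and 4.27 in control. PTX thus lay near control and below 231T without overlap. Of 24 nucleoporins, which build the nuclear pore, 14 were lower and 2 higher, led by NUP155 (-2.76, limma adjusted p = 0.0023), NUP43 (-2.22, limma adjusted p = 0.00927) and NUP107 (-1.96, limma adjusted p = 0.00627). SEH1L, a further pore component, was lower, with a difference of -3.14 (SE 0.37, limma adjusted p = 0.00156). Of 422 zinc finger genes (ZNF) 145 were lower and 3 higher, with a median of -0.26. Of 49 ribosomal protein genes 20 were lower and 0 higher after centring, 15 as deposited and 27 after quantile normalization. Of 41 loci annotated as MIR548, a miRNA family of many genomic copies, 13 were lower and 0 higher. The cluster annotated as MIR548AJ2 (-3.20, limma adjusted p = 0.00538) carries the code of chromosome 4 in its ID while RefSeq places that gene on X, so its locus is uncertain and no sequence is given. The share of protein-coding genes lower in PTX was 21.2%, against which these counts are to be read.

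Single exon parts and junctions showed greater differences than whole genes. The named probe sets are those with the greatest differences of each type and direction, whether the lower group lay above or below the filter. Those of MUC5B, TFRC, SLC29A4, PTPN3, PNPLA7, MUC21 and PICALM each had an array above 16 as deposited, above the range of a scanner. The differences given for them are therefore not read as sizes. The exon part PSR11000779 of MUC5B read 13.35, 13.38 and 13.88 on the PTX arrays and -0.22, 0.76 and -1.32 on the 231T arrays, a difference of 13.80 (SE 0.56, limma adjusted p = 1.61e-05). Of 95 tested MUC5B exon parts 81 were higher and 0 lower, and 40 of 66 junctions were higher and 4 lower. Over all tested exon parts 8.56% were higher and 13.6% lower, and over all junctions 11.8% and 12.7%. The genes here were picked through their most extreme probe sets, so their counts are a description. TFRC behaved likewise in the other direction, with 28 of 36 exon parts and 19 of 24 junctions lower; its exon part PSR03038067 read 3.73, 2.01 and 2.60 on the PTX arrays and 10.68, 10.87 and 10.28 on the 231T arrays, a difference of -7.83 (SE 0.49, limma adjusted p = 9.64e-05). Other probe sets stood apart from their gene. The TRIM2 junction JUC04005683 read -3.004, -2.89 and -3.38 on the PTX arrays and 13.83, 13.82 and 13.73 on the 231T arrays, and -2.63, -2.45 and -2.76 in control. Its mean was below the filter in PTX and in control, so it was tested only through the 231T arrays, whose deposited values lie above the range of a scanner, and no difference or p is given. Of the 25 exon parts of TRIM2, 1 was higher and 1 lower, and the gene-level difference was -0.18 (limma adjusted p = 0.279). The SLC29A4 junction JUC07000349 read -0.62, 0.025 and -0.37 on the PTX arrays and 13.10, 13.37 and 14.30 on the 231T arrays, a difference of -13.91 (SE 0.34, limma adjusted p = 1.53e-06), with a gene-level difference of 0.15 (limma adjusted p = 0.26). Both junctions were near or below the array median on all control and PTX arrays and more than 13 above it on all 231T arrays. The PTPN3 junction JUC09009821 (-12.40, limma adjusted p = 9.56e-06) and the PNPLA7 junction JUC09012291 (-9.94, limma adjusted p = 6.58e-06) were also bright in 231T, with gene-level differences of -0.68 and 0.12 that did not pass the test. Higher in PTX was a junction of MUC21, JUC06001428 (10.46, limma adjusted p = 1.46e-05), with 12 of 42 exon parts of that mucin also higher. So was 1 junction of PICALM, JUC11013760 (10.15, limma adjusted p = 0.000491), whose gene did not pass the test at gene level. Of 29 PICALM junctions 4 were higher and 6 lower, and of its 30 exon parts 0 were higher and 7 lower, counts that are not read as a result about the gene. The ARPC1B junction JUC07020290 read 13.75, 13.19 and 8.20 on the PTX arrays and -3.83, -1.5003 and -3.04 on the 231T arrays, where its mean in 231T was below the filter and no p is given, and ARPC1B did not pass the test at gene level. The junction JUC03004332 of ARL6IP5 read 13.70, 10.06 and 10.54 on the PTX arrays and -0.99, -0.72 and 5.49 on the 231T arrays, and 231T replicate 3 stood apart from the other 231T arrays. What sequence a junction probe shares with a vector or another transcript was not tested.

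Some of the called exon parts lay in runs. A run was counted where at least 3 neighbouring tested exon parts, in ID order, were called in one direction. There were 4931 runs lower in PTX, which held 38.5% of the lower calls, and 1469 runs higher, which held 17.7% of the higher calls, so most called exon parts of either direction lay outside a run. The longest higher run was 63 exon parts in MUC5B, with medians of 6.37, 6.07 and 7.38 on the PTX arrays and -1.12, -0.88 and -0.77 on the 231T arrays. The next 2, of 27 and 25 exon parts on the code of chromosome 11, carry no gene symbol, and they were followed by 21 in LTBP1 and 18 in KIF20A. Runs of 28 and 25 lower exon parts on the code of chromosome 16 carry no symbol either. The longest lower runs with a symbol were 36 exon parts of ATP13A3 (median difference -3.49), 26 of THBS1, which codes for thrombospondin (-2.42), 23 and 22 of NPIPB3, 21 of FANCI, which repairs DNA crosslinks (-2.50), and 21 of TARS1 (-2.92). NPIPB3 belongs to a family of near-identical copies on chromosome 16, where the signal cannot be assigned to 1 copy. In THBS1 both groups lay above control, with medians of 7.79, 7.97 and 7.56 in PTX, 10.63, 11.20 and 10.23 in 231T and 5.39, 6.39 and 6.49 in control.

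Exon use was measured as the level of an exon part minus the median of its gene's exon parts on the same array, so that a change of the whole gene cancels. Of 283462 exon parts in 15527 genes with at least 5 exon parts, 52640 (18.6%) passed the test, 27019 with relatively more signal in PTX and 25621 with less. Without PTX replicate 3 the count was 31158, and without 231T replicate 2 it was 33442. Restricted to 127414 exon parts in the measured range (both group means at least 5 and no array above 14 as deposited) and in genes whose median moved by less than 1, 24100 were called and 3048 of them departed from their gene by at least 2, 1696 upward and 1352 downward, in 2291 genes. The departures named are the 6 greatest of each direction in different genes. In TFCP2L1, a transcription factor of epithelial cells, 1 exon part read 7.21, 7.25 and 7.06 on the PTX arrays and 1.44, 2.24 and 2.47 on the 231T arrays, a departure of 5.72 (SE 0.25, limma adjusted p = 3.87e-06), while the gene's median moved by -0.46. In DIABLO, whose product SMAC opposes inhibitors of apoptosis, 1 exon part read 6.01, 4.46 and 5.64 on the PTX arrays and -0.63, 0.75 and 0.37 on the 231T arrays, a departure of 5.57 (SE 0.43, limma adjusted p = 9.06e-05). Both exon parts were lower on every 231T array than on any PTX or control array. In NRG1, a ligand of ERBB receptors, 1 exon part read 0.45, 1.29 and 0.98 on the PTX arrays and 7.20, 7.44 and 8.27 on the 231T arrays, a departure of -6.77 (SE 0.30, limma adjusted p = 4.56e-06). In CSAD, an enzyme of taurine synthesis, 1 exon part read -0.68, -0.21 and -0.46 on the PTX arrays and 6.07, 5.49 and 5.89 on the 231T arrays, a departure of -6.20 (SE 0.28, limma adjusted p = 4.56e-06). In SERPINA5 it was -7.59 (SE 0.55, limma adjusted p = 7.17e-05). These 3 exon parts lay near or below the array median in control and PTX and more than 5 above it on all 231T arrays, in genes of 39, 37 and 12 exon parts. WDR45B (6.68), MAB21L4 (5.76), AREL1 (5.73) and OCIAD1 (5.55) departed upward and MUC19 (-6.48), SYCP2L (-5.44) and ANKRD45 (-5.24) downward, with limma adjusted p of 3.87e-06 to 0.00261 over the 12, and these 12 calls held under every alternative run.

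Exon use also differed within genes of the splicing list. Of 671 exon parts in 24 genes of the list 197 (29.4%) departed from their gene, against 18.6% of all exon parts. These counts take exon parts of any level, without the limits on range and on the gene's median. That median moved by -1.57 in TRA2A, -1.63 in TRA2B and -2.31 in SRSF1. The 18.6% is not matched for level or for the move of the gene, so the excess is not read as a result about the list. HNRNPH1 had 40 of 66 exon parts called, 33 of them upward, and HNRNPU had 22 of 43, 21 of them downward. In TRA2B 15 of 31 departed, 3 upward and 12 downward, in TRA2A 13 of 26, and in SRSF4 12 of 21, all upward. RSRC2, a gene whose splicing has been tied to TRA2A, had 7 of 18 exon parts called, 5 upward and 2 downward, around a gene median of 0.35. Its exon part PSR12027354 read 6.85, 6.15 and 6.19 on the PTX arrays and 3.76, 4.08 and 4.22 on the 231T arrays, a departure of 2.35 (limma adjusted p = 0.000871), and PSR12027352 read 4.97, 4.93 and 5.18 on the PTX arrays and 3.12, 2.98 and 2.68 on the 231T arrays, a departure of 2.08 (limma adjusted p = 0.00236). In both the groups did not overlap and control lay near PTX. Of its 17 tested junctions 5 were higher in PTX (background 11.8%) and 0 lower (background 12.7%). The junction JUC12015328 read 7.42, 7.11 and 7.50 on the PTX arrays and 5.61, 4.73 and 5.22 on the 231T arrays, a difference of 2.16 (SE 0.31, limma adjusted p = 0.00187). CALU, which codes for the calcium-binding protein calumenin and has been tied to TRA2A in the same way, had 5 of 22 exon parts called, 4 upward. Which exon of the transcript each exon part measures was not worked out here, since no genome of the files' build was used.

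Medians over whole chromosomes differed by small amounts. These shifts are far below 2, in a table whose 231T columns are on another scale. Neither codes nor the windows described below were run under quantile normalization or after mapping to the gene-level scale. Windows were not checked at gene level. The ID of a probe set carries a code that equalled the RefSeq chromosome of its gene for 99.95% of 497239 probe sets checked. For each of 23 codes the median over bright exon parts (at or above the 75th percentile of the mean) was compared. It passed the test for 16 codes (69.6%), higher in PTX for 7 (30.4%), namely 6, 11, 17, 19, 21, 22 and X, and lower for 9 (39.1%), namely 2, 3, 5, 8, 10, 12, 13, 14 and 18. The greatest shifts were 0.50 for code 19 (SE 0.14, limma adjusted p = 0.00932), 0.43 for code 22 (SE 0.10, limma adjusted p = 0.00587) and -0.43 for code 10 (SE 0.045, limma adjusted p = 8.96e-05). At gene level 11 codes passed: 2 (-0.17), 3 (-0.21), 10 (-0.21) and 12 (-0.18) were lower, and 6 (0.17), 11 (0.13), 15 (0.095), 17 (0.12), 19 (0.17), 21 (0.12) and 22 (0.19) were higher. On code 19, PTX replicate 1 stood apart at -0.089, against 0.43 and 0.47 on replicates 2 and 3, and the 231T arrays read -0.21, -0.36 and -0.12.

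**Figure D5:**
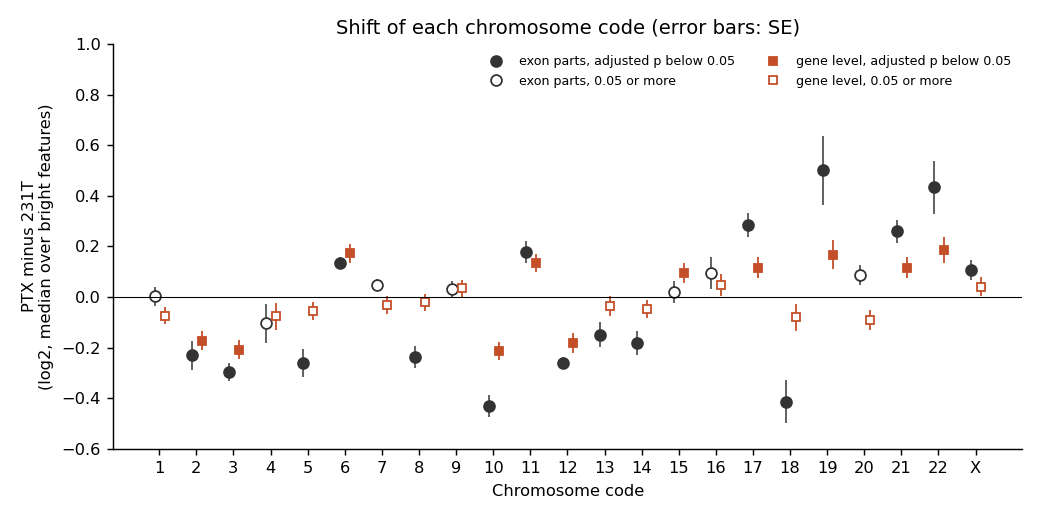
Median PTX minus 231T difference (log2, vertical axis, with SE bars) over bright features of each chromosome code (horizontal axis), for exon parts (circles) and the gene level (squares), filled where the test was passed. Codes 2, 3, 10 and 12 lie below 0 and codes 6, 11, 17, 19, 21 and 22 above 0 at both levels.

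Within chromosomes, 312 of 634 windows of 200 neighbouring bright exon parts (49.2%) passed the test, 153 higher (24.1%) and 159 lower (25.1%). Code 10 had 14 of 26 windows lower and 0 higher, and code 19 had 20 of 29 higher and 0 lower. The greatest higher window, on code 1 between NBPF8 and NOTCH2NL, read 4.25, 3.63 and 3.86 on the PTX arrays and 1.96, 2.34 and 1.18 on the 231T arrays, a shift of 2.08 (SE 0.28, limma adjusted p = 0.000101). A window from NBPF14 to FAM72C on the same code was higher by 1.66, and both windows hold 3 annotated genes, of families with near-identical copies. On code 11 the windows from RIC8A to MUC5B (1.90) and from MUC5B to TUB (1.40) were higher, and on code 17 the window from ITGB4 to RNF213 (1.31). The greatest lower window, on code 10 between PRKG1 and SUPV3L1 with 18 genes, read 0.21, -0.23 and -0.15 on the PTX arrays and 1.58, 1.64 and 1.52 on the 231T arrays, a shift of -1.64 (SE 0.12, limma adjusted p = 3.87e-06). The control arrays at 0.028, 0.23 and 0.20 lay with PTX. The windows from NABP1 to CFLAR on code 2 (-1.54), from GDE1 to GGA2 on code 16 (-1.53), from AZIN1 to ZHX1 on code 8 (-1.46) and from BMPR1A to HHEX on code 10 (-1.39) were lower as well.

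The place of the control arrays was counted for gene-level clusters called with a difference of at least 2 whose groups did not overlap. Because the control arrays entered the fit only through the spread, their level is a description. Of 477 such clusters that were higher in PTX, the control mean was nearer to PTX in 376 and nearer to 231T in 101. It lay between both groups in 394, above both in 82 and below both in 1. Of 356 that were lower in PTX, the control mean was nearer to PTX in 346 and nearer to 231T in 10, between the groups in 210 and below both in 146. TFRC, UAP1 and TFPI2 had control near PTX, and IFI27 had control near 231T. The PTX and 231T arrays did not overlap for 37.6% of all clusters, which says nothing of where control lies. The place of control over all clusters is not given here, so these positions have no background share.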

How the data were processed

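The deposited values are RMA signals on a log2 scale, made by the authors with Affymetrix Expression Console 1.3.1, per the submitters' processing notes. Neither a genome build nor a probe annotation release is stated there. The deposited 231T columns of the exon-level table are on another scale than the rest. From these values the array median of the tested features was subtracted. The PTX minus 231T contrast of a linear model over 9 arrays was then tested (limma 3.58.1 under R 4.3.3, moderated by eBayes), with Benjamini-Hochberg adjustment over all features tested. The gene-level table holds 70523 features of all kinds. Its transcript clusters were filtered at the 25th percentile of their means, which left 50646 clusters. Of these, 20057 have 1 gene symbol in the annotation used, 1365 several and 29224 none. The gene level is a log2 summary of the same arrays and no independent test. Descriptions of 2 control arrays give another line name than their source does.

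Intensities carry no read depth, so 3 arrays a group limit the precision: the median SE of a difference was 0.36 at exon level and 0.14 at gene level. The tests were tried on simulated data. Exon use was tested by limma on departures from the gene's median, a test added after the files were seen.

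Named were, per type and direction, the 5 probe sets with the largest difference without overlap and 2 whose lower group lay below the filter, and the 12 clusters with 1 symbol largest in each direction, TRA2A and called list members. For runs the plan took the 3 longest per direction, and further long runs were named beside them. For codes and windows the 5 largest per direction were taken. The 12 largest protein-coding genes per direction, families and exon use were added later. Some protein-coding genes beyond these 12, such as ITGA3, LTBP1, TFAM, ANKRD1 and DDX21, were picked while others of similar size were left out. Members and lists were chosen with earlier results of these data known. Promoters and the miRNA come from RefSeq (GRCh38.p14). Alternatives covered scaling, filters, weights, the replicate block and leaving out arrays.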

Additional observations from a re-analysis of the deposited data

Results flagged for a closer look

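The tables also hold features whose ID is a plain number and not that of an exon part or junction, and which enter no comparison above. Of 1343 such features tested, 197 passed the limma test, 44 higher and 153 lower in PTX than in 231T. Of all exon-level probe sets 23% passed and of all gene-level clusters 20.8%, so the count called is not read as a result about these features. Of the lower ones, 139 had every 231T array above every control array, while 6 of the higher ones had every PTX array above every control array. What these features match was not tested.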

How the results depend on the processing

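Counts are of features called by limma. At exon level 157910 probe sets became 102090 with a filter at the 75th percentile, where fewer were tested, and 49837 for junctions alone. Those with a difference of at least 2, a count chosen after seeing the data, went from 51791 to 24748 for exon parts alone and 27346 for junctions alone. Of 28 named probe sets, 10 had no array above 16 and could be kept under that limit. In the fit of the 6 PTX and 231T arrays alone, 4 tubulin genes were called, and windows were 548 with a floor at the 50th percentile and 180 for junctions, against 312. The cause of these changes was not tested where the number of features was the same.

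Leaving out 1 array at a time gave 102588 to 155683 exon-level calls, 44544 to 65929 of at least 2, 6413 to 11672 gene-level calls and 750 to 1339 of at least 2, and the 28 named probe sets stayed at 28. Called list members ranged from 9 to 18 for splicing, 6 to 8 for apoptosis, 3 to 5 for drug transport, 4 to 8 for epithelial and mesenchymal genes, 5 to 11 for interferon, 6 to 11 for mitosis, 4 to 7 for stress and 3 to 10 for tubulins. Exon-use calls ranged from 31158 to 48416, those of at least 2 from 2728 to 4205, codes from 14 to 19 and windows from 215 to 427.

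With the replicate block, calls were 131642 at exon level, 8573 at gene level, 44906 for exon use, 15 codes and 291 windows, and the lists had 10, 7, 4, 7, 8, 7, 5 and 6 called members in the order above. Same-numbered PTX and 231T arrays deviated from their group means with r of 0.042, -0.27 and -0.014 at gene level, so they share only a number, and not every array correlated best with its own number. Of single calls, 44 of 51 probe sets, 120 of 170 genes and 12 of 12 departures passed in every setting run, and 0 reversed.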

Other observations

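The 155 added-RNA control features (ERCC) had an array median, averaged over 3 arrays, of 5.17 in control, 5.09 in PTX and 4.88 in 231T at exon level, and of 4.79, 4.77 and 4.88 at gene level, as deposited log2 values. Their order in the groups thus differed between the tables, and 231T had the same value in both.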
